A study of Drosophila melanogaster with 17 samples.

Results

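Ageing of the whole gut was followed in 4 of the 17 libraries of the series, 2 of whole guts dissected from flies 5 days old and 2 of whole guts dissected from flies 40 days old. The libraries were chosen by their labels alone, as the samples titled young whole gut and old whole gut, and all annotated genes were examined. The series concerns lamin-B loss with age in Drosophila melanogaster and also holds fat body and midgut libraries of young flies, old flies and flies with RNA interference against Lam. All 4 whole gut libraries came from flies labelled as untreated, and the series design text calls the young controls wild type. The labels used here do not give strain, sex, diet or how many guts were pooled. Poly-A RNA was sequenced and the reads were counted per annotated gene. The comparison asks how the transcripts of the entire intestine differ between a young adult and an aged one.

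The adult fly intestine runs from the foregut through the midgut to the hindgut. Midgut enterocytes secrete digestive enzymes and absorb nutrients, enteroendocrine cells release peptide hormones, and intestinal stem cells replace both. Stressed or infected enterocytes release the cytokines Upd2 and Upd3, which signal through JAK-STAT to stem cells, and with age stem cell division, immune activity and barrier failure are known to increase in the fly gut.

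The libraries held between 31637135 and 36572942 counted reads, and 10383 to 11537 annotated loci had at least 1 read. At these depths 3 reads correspond to between 0.082 and 0.0948 counts per 1000000 reads (CPM), the level that a count of 0 still allows, for counting error only. The libraries differed in composition with age. The 50 most abundant loci of each library held 35.1 and 34.4% of the reads at 5 days and 23.6% in each library at 40 days. The 50 loci that lost most reads took 31.3% of the reads at 5 days and 14.2% at 40 days, averaged over 2 libraries. Levels are therefore given below as normalised CPM, which is CPM after the TMM correction for composition, in the order young replicate 1, young replicate 2, old replicate 1, old replicate 2. Without that correction, that is by total counts alone, changes came out higher by a median of 0.50 (log2), and counts by total counts are given beside those of most lists.

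Of 14095 loci, 9773 had enough reads to be tested. With edgeR's quasi-likelihood test and a Benjamini-Hochberg adjusted p below 0.05, 1969 loci (20.1% of those tested) rose and 2288 (23.4%) fell from 5 to 40 days, 43.6% in all. At least 2-fold changes were fewer, with 528 rises (5.4%) and 564 falls (5.77%). The median log2 change of all tested loci was 0.02. With total counts alone, 6095 loci (62.4%) rose and 838 (8.57%) fell, so the share of calls that were rises was 87.9% in place of 46.3%. Each whole gut list count below is to be read against the shares of all tested loci, 20.1% rises and 23.4% falls. For counts by total counts those shares are 62.4% and 8.57%. Rises numbered 1258 without old replicate 1 and 1192 without old replicate 2. A whole gut is a mixture of cell types, so fewer cells of a type and less RNA per cell cannot be told apart in any of the results.

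**Figure D1:**
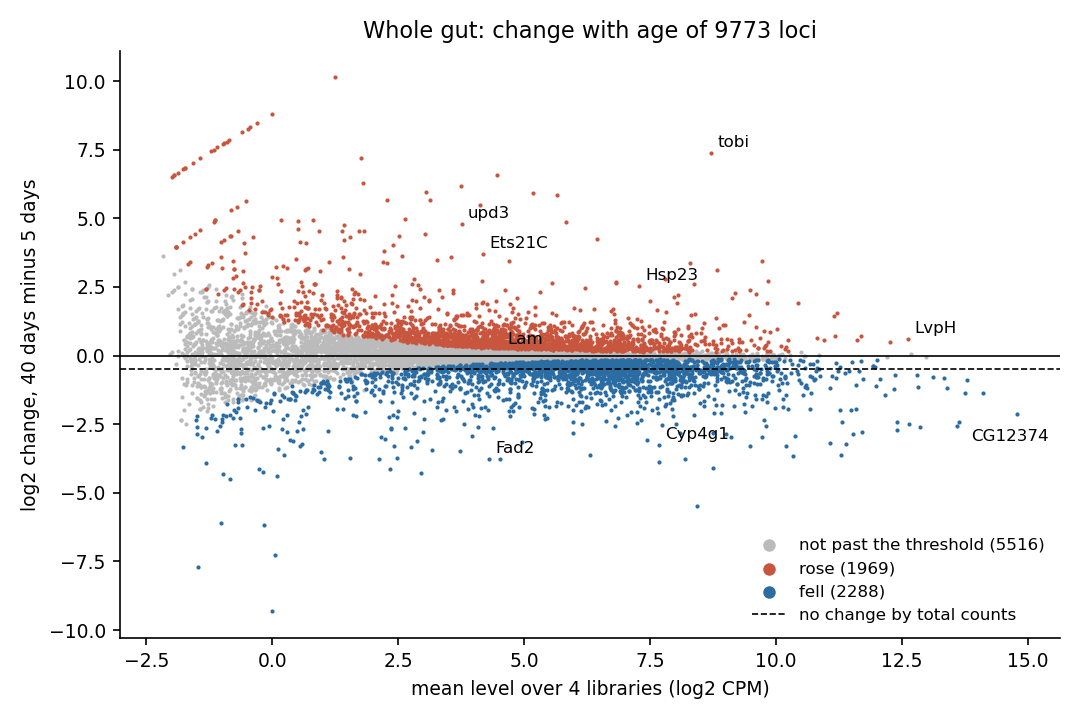
Each point is 1 of 9773 tested loci, placed by its mean level over the 4 whole gut libraries (log2 CPM, x axis) and its log2 change from 5 to 40 days (y axis), with 1969 rises in red and 2288 falls in blue. The dashed line marks where a locus would show no change by total counts, 0.50 below the zero line; the most abundant loci, such as CG12374, lie mostly below both lines, and the diagonal series at the upper left are loci with 0 reads at 5 days, whose fitted changes have no fixed size.

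Digestive enzymes held the largest losses. The 6 loci that lost most reads were CG12374, CG9468, Jon25Biii, Jon65Aiv, Jon25Bi and yip7. The most abundant transcript of young guts, CG12374, stood at 46200 and 45900 normalised CPM at 5 days and at 10800 and 10100 at 40 days, a level 4.41-fold lower (log2 change -2.14, SE 0.052, adjusted p = 2.71e-12). The Jonah genes encode serine proteases secreted into the gut lumen. Jon25Biii (chromosome 2L, 4949947 to 4950763) stood at 22500 and 20500 at 5 days and 3930 and 4060 at 40 days, 5.38-fold lower (adjusted p = 1.82e-12). Jon65Aiv, the most abundant protease of the list, went from 26800 and 24000 to 9630 and 10300 and was 2.55-fold lower (adjusted p = 8.75e-10). Neither gene's groups overlapped.

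Among 30 tested genes of the digestive protease list, 26 fell and 2 rose, with a median log2 change of -1.36. All 16 Jonah genes were tested, of which 14 fell and 2 rose. Together the Jonah genes took 9.64 and 8.98% of all counted reads at 5 days and 3.52 and 3.67% at 40 days, a fall that does not depend on the scaling. Jon65Ai showed the steepest loss of the family, from 2550 and 2300 to 194 and 190 (12.6-fold lower, adjusted p = 2.68e-13). Jon99Ci stood at 4580 and 4680 in young guts and at 415 and 328 in old guts, 12.5-fold lower (adjusted p = 2.39e-11). Jon65Aii and Jon44E were 9.75-fold and 7.74-fold lower. Jon66Ci and Jon66Cii, picked out after their values were seen, were the 2 that rose, both from levels under 1 CPM, and 1 of these calls was lost when young replicate 2 or either old replicate was left out. The 12 trypsins had 11 falls and no rise, with a median of -1.03. By total counts 22 proteases fell and 6 rose. The Jonah genes and the trypsins are close paralogs that share sequence, and the handling of reads that match several places is not stated, so values of single members are less certain than the family totals.

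Among carbohydrate-digesting enzymes, alpha-mannosidases and maltases moved mostly in opposite directions and the amylases split. The amylase genes, named after their values were seen, are Amy-p, Amy-d and Amyrel. Amy-p and Amy-d fell 1.21-fold and 1.37-fold, and Amyrel rose 2.79-fold. By total counts Amy-p rose by 0.22 and Amy-d did not pass (0.04). Lysosomal alpha-mannosidases, which remove mannose from glycans, fell in 6 of 6 cases, with a median of -2.64. CG9468 (current symbol LManVI; chromosome 2L, 8777661 to 8781251) stood at 21100 and 21000 normalised CPM in young guts and 3620 and 3500 in old guts, 5.92-fold lower (adjusted p = 3.81e-13). Its neighbour CG9463 (LManIII) was 9.41-fold lower, and CG9465 (LManIV) fell from 361 and 407 to 26.8 and 24.8, 14.9-fold lower (adjusted p = 3.81e-13). The 6 mannosidases together took 3.31 and 3.43% of reads at 5 days and 0.817 and 0.769% at 40 days. Lysozymes, several of which the fly uses to digest bacteria, had 6 falls and 1 rise among 7 genes (median -1.93). They are paralogs of uncertain single counts, and LysC and LysD overlap each other in part on opposite strands, so these 2 falls may share reads.

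Maltases, which split maltose and sucrose at the gut surface, went the other way. Of 10 tested, 6 rose and 1 fell, and their summed share of reads was 0.734 and 0.738% at 5 days against 1.67 and 1.54% at 40 days. LvpH (Mal-A1) gained more reads than any other locus of the gut, from 5040 and 5020 normalised CPM to 7760 and 7450 (1.51-fold higher, adjusted p = 2.51e-07). Its position overlaps Cyp4e1 on the other strand, so its count is uncertain. The alpha-glucosidase gene tobi (target of brain insulin; chromosome 3R, 21170483 to 21172634) had the steepest rise among well-expressed genes with a gene name. It stood at 5.18 and 4.92 in young guts and at 1100 and 571 in old guts, so the old libraries lay far apart. The 165-fold rise passed (adjusted p = 0.0135), but not without young replicate 1 (adjusted p = 0.191) or young replicate 2 (adjusted p = 0.178), and tobi overlaps rha on the other strand. Over all 27 carbohydrases and lysozymes, 9 rose and 15 fell, and by total counts 12 rose and 12 fell. Rises numbered 6 without young replicate 2.

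**Figure D2:**
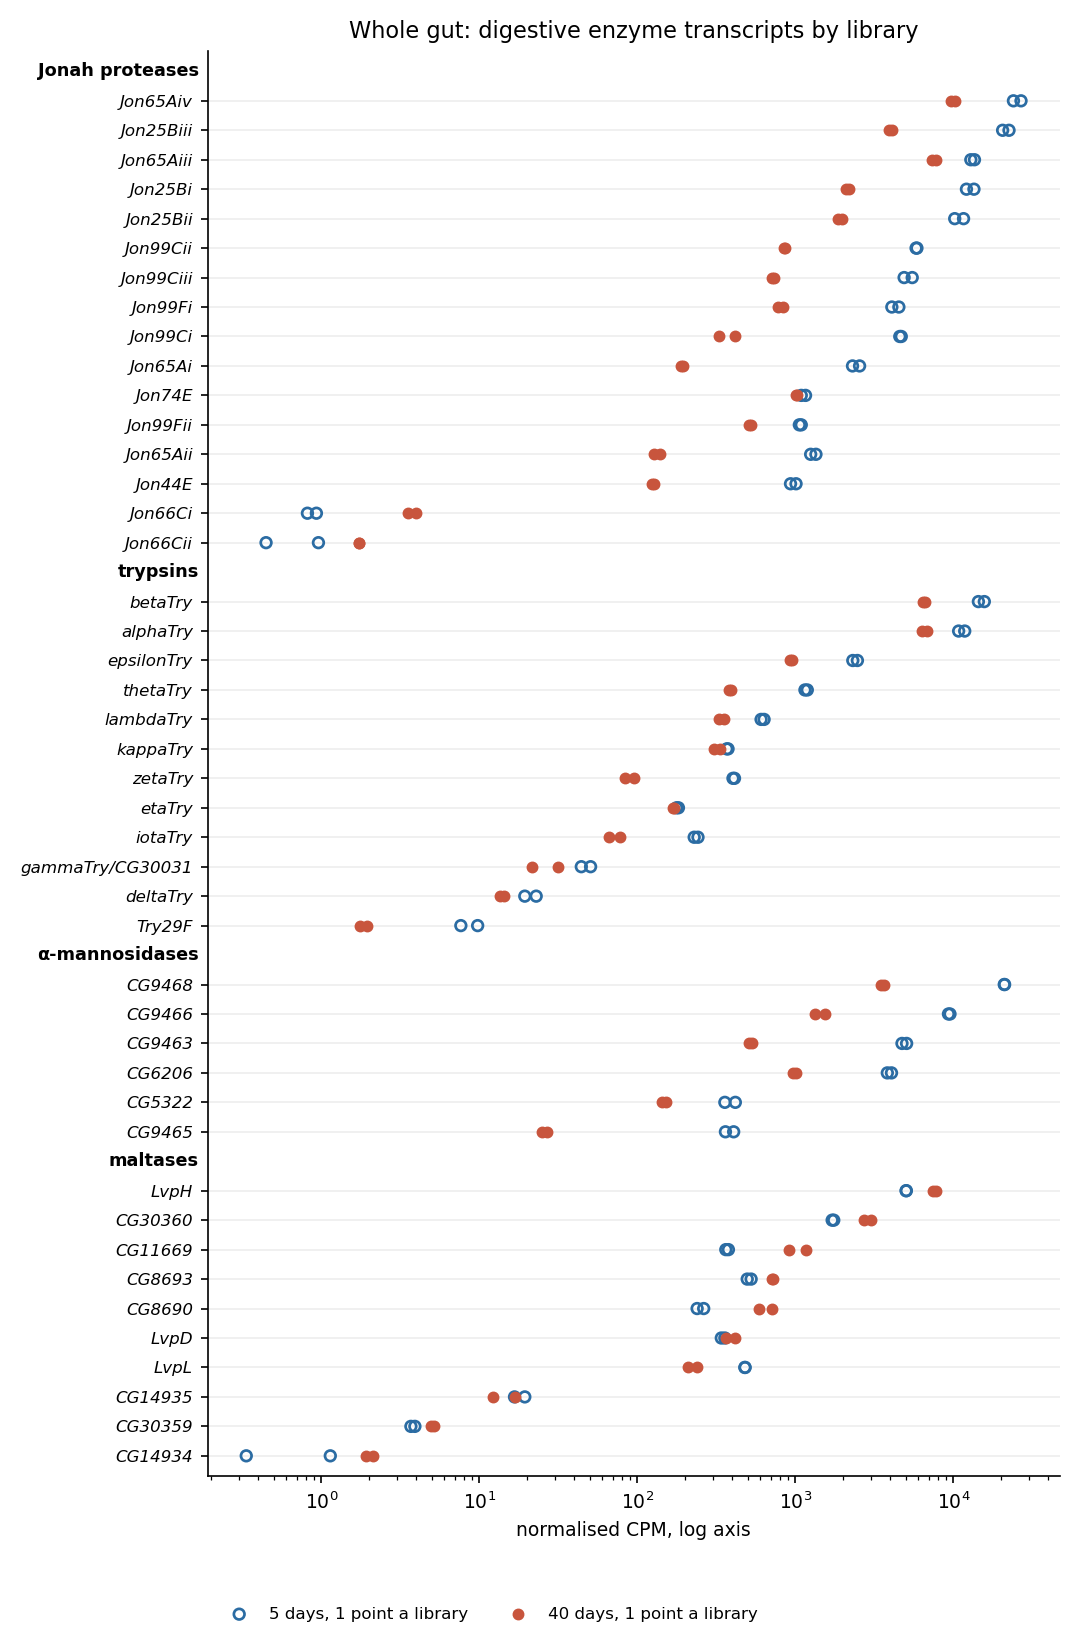
Normalised CPM on a log axis (x) of every Jonah protease, trypsin, alpha-mannosidase and maltase of the lists (y), with 1 open blue point per 5-day library and 1 filled red point per 40-day library. The red points of Jon25Biii (3930 and 4060) lie well to the left of the blue ones (22500 and 20500), all 6 mannosidases shifted the same way, and most maltases, such as LvpH, shifted to the right.

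Lipid and sterol genes gave a similar mixture. The most abundant gene of the lipid list, CG5932 (mag, also called magro, a gut lipase that clears dietary fat and sterol esters), stood at 2180 and 2110 in young guts and 234 and 203 in old guts, 9.82-fold lower (adjusted p = 7.01e-13), and it overlaps CG5195 on the other strand. The triglyceride lipase gene bmm fell 2.01-fold, from 314 and 334 to 162 and 161, and the lipophorin receptor LpR1 was 3.56-fold lower. Lip4 rose 3.71-fold, from 11.0 in both young libraries to 41.0 and 40.4. In all, 15 of 21 lipid genes fell and 4 rose (median -0.53), and by total counts 7 fell and 7 rose. Npc2 proteins bind sterols. Npc2d fell 5.1-fold and Npc2c 5.57-fold, while Npc2e rose from 92.4 and 95.4 to 441 and 435 (4.67-fold) and the sterol transporter gene Npc1b rose from 305 and 323 to 653 and 689 (2.14-fold). The sterol list as a whole had 4 rises and 4 falls among 10 genes, by total counts 6 and 2.

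Metallothioneins, small proteins that bind copper and zinc, were lower in old guts. MtnB stood at 785 and 779 at 5 days and 189 and 180 at 40 days (4.23-fold lower, adjusted p = 3.1e-12), MtnC fell 4.44-fold and MtnA 1.96-fold. Of 19 tested metal-handling genes 14 fell and 2 rose. By total counts 6 fell and 6 rose, the 3 metallothioneins named here among the falls, and rises numbered 4 when young replicate 2 was left out and 1 when old replicate 2 was. The vacuolar proton pump, which acidifies the copper cell region and intracellular vesicles, had 17 falls and no rise among 20 subunits, with a median of -0.64. Vha44 changed from 1090 and 1130 to 613 and 594 (1.84-fold lower, adjusted p = 6.58e-09). By total counts 12 subunits fell and 3 rose.

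All 43 tested respiratory chain genes fell, with a median log2 change of -0.51 and a range from -0.65 to -0.28. ATPsyn-beta, a subunit of ATP synthase, went from 3170 and 3350 to 2130 and 2050 (1.56-fold lower, adjusted p = 1.99e-07). This common step is the size of the shift between the scalings. By total counts 3 rose, 3 fell and the median was -0.01, and the list took 1.81 and 1.79% of reads at 5 days and 1.74 and 1.77% at 40 days. Cytoplasmic ribosomal proteins gave the reverse picture, with 4 rises and 21 falls among 83 tested genes (median -0.08) but 83 rises by total counts. Their rises numbered 8, 1 and 7 without young replicate 2, old replicate 1 and old replicate 2, and their falls 36 and 12 without young replicate 2 and old replicate 2. Of 73 mitochondrial ribosomal proteins, 1 rose and 5 fell, against 66 rises and no fall by total counts, and leaving out any 1 library gave 0 to 9 rises and 1 to 11 falls.

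Mucins and peritrophins coat the gut lumen. Mur29B rose from 208 and 218 to 888 and 920 (4.25-fold, adjusted p = 3.19e-12) and Muc68E 2.07-fold. The far more abundant Mur18B fell from 7630 and 6900 to 2940 and 3290 (2.33-fold lower) and Muc11A fell 2.29-fold. The list held 5 rises and 5 falls among 13 tested of 18 measured genes, by total counts 8 and 2, and the falls numbered 3 without young replicate 2, old replicate 1 or old replicate 2. Septate junctions seal the epithelium. Of 22 junction genes 9 rose and 1 fell (median 0.27), by total counts 21 and 1. CG31004 (mesh), Tsp2A and CG6981 (Ssk), the smooth septate junction proteins of the midgut, rose 1.57-fold, 1.83-fold and 1.59-fold, with mesh at 1450 and 1370 in young guts and 2160 and 2270 in old guts (adjusted p = 2.52e-07). Each of these 3 loci overlaps another gene on the opposite strand. The sodium pump subunit Atpalpha was the fall, from 2970 and 2950 to 1670 and 1730. Rises numbered 6 without old replicate 2.

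Cytokine genes that drive epithelial renewal rose. The transcript of upd3 (chromosome X, 18171266 to 18178631) stood at 0.959 and 0.82 normalised CPM at 5 days and 23.7 and 25.7 at 40 days, 27.6-fold higher (log2 change 4.79, SE 0.18, adjusted p = 1.85e-10). Its paralog upd2 went from 0.178 and 0.335 to 6.3 and 5.6 (adjusted p = 3.02e-07). Socs36E, a feedback inhibitor that JAK-STAT induces, rose from 24.7 and 20.3 to 117 and 132 (5.51-fold, adjusted p = 3.19e-10). The transcription factor gene Stat92E stood at 251, 279, 251 and 251, a difference that did not pass (adjusted p = 0.31) but was a rise of 0.42 by total counts and a fall of 0.16 without young replicate 1. Of 17 genes measured in the JAK-STAT and Turandot list 12 were tested, of which 7 rose and none fell, by total counts 10 and 0. Without young replicate 1, Stat92E made 1 fall. Both young libraries had under 10 reads of 2 tested members, upd2 and os, another Upd cytokine gene that did not pass (adjusted p = 0.0571). These 2 genes entered the test only through the old libraries, so the rise of upd2 is a description. The stress peptide gene TotC went from 0.249 and 0.41 to 3.59 and 3.34. With 7 and 11 reads at 5 days, TotC too entered the test only through the old libraries.

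Genes of other signals known to act on stem cells moved in part. Ets21C, a transcription factor gene that JNK signalling induces, stood at 2.13 and 2.87 in young guts and 30.8 and 34.1 in old guts, 13-fold higher (adjusted p = 4.98e-10). In the JNK, p38 and oxidant list 10 of 22 genes rose and 2 fell. Among them kay, the fly Fos, rose 1.72-fold, the p38 kinase gene p38c 2.2-fold, and Nox, an NADPH oxidase gene, from 8.63 and 6.41 to 19.9 and 21.9 (2.78-fold, adjusted p = 3.23e-06). By total counts 20 rose and none fell, and both falls were lost without either old replicate. Of 15 tested EGFR genes 4 rose and 2 fell, no more than a few genes from the shares of all loci (20.1% rises, 23.4% falls). The ligand gene vn rose 2.55-fold and rho, whose protease releases EGFR ligands, 3.94-fold from 2.59 and 2.94 to 9.72 and 12.1, whereas kek1, an inhibitor of the receptor, went from 11.8 and 14.4 to 1.22 and 1.41 (9.97-fold lower, adjusted p = 3.48e-08). By total counts 13 rose and 1 fell. Rises numbered 2 without old replicate 2, and falls 3 without young replicate 2.

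Cell cycle and replication genes were higher in old guts where they moved. Of 43 tested, 22 rose and none fell, against 20.1% rises among all tested loci, and the median change was 0.65. RnrS, a ribonucleotide reductase subunit needed for DNA synthesis, stood at 18.8 and 15.4 in young guts and 36.3 and 34.2 in old guts (2.06-fold, adjusted p = 4.75e-06). The mitotic cyclins CycA and CycB rose 2.92-fold and 3.31-fold, CycB from 1.31 and 1.38 to 3.72 and 5.2, and the replication helicase gene Mcm3 rose 2.94-fold. The rises numbered 12 without old replicate 1 and 12 without old replicate 2, and 39 by total counts. No member fell with all 4 libraries, but 1 did without young replicate 1 or without old replicate 1.

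Markers of the stem and progenitor cells themselves did not move together. Of 15 tested progenitor and Notch genes 4 rose and 2 fell, by total counts 9 and 1. These counts are close to the shares of all loci (20.1% rises and 23.4% falls, by total counts 62.4% and 8.57%). Sox21a, a transcription factor of stem cells and enteroblasts, stood at 4.15 and 3.05 at 5 days and 19.2 and 19.1 at 40 days (5.29-fold higher, adjusted p = 6.64e-08). Sox100B rose 2.49-fold and Apc, a brake on Wnt signalling, 2.12-fold. In contrast mira, an adaptor in asymmetric division, fell from 45.5 and 41.5 to 12.9 and 12.3 (3.46-fold lower, adjusted p = 7.66e-09), and it overlaps Hs6st on the same strand. The classical progenitor marker esg, named after its values were seen, was the other fall, from 32.9 and 35.7 to 19.7 and 21.7, which did not pass by total counts (adjusted p = 0.055). Rises numbered 8 without young replicate 2, and falls 3 without young replicate 1.

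Enteroendocrine genes were mostly lower, with 10 falls and 4 rises among 19 (median -0.68), by total counts 6 and 5. The hormone genes Ast-C, CG14375 (CCHa2) and Tk fell 2.02-fold, 2.36-fold and 1.67-fold, Ast-C from 81.8 and 85.3 to 42.3 and 40.4 (adjusted p = 9.79e-08). The secretory granule gene ia2, the most abundant of the list, fell 1.61-fold. Markers of gut regions had 7 falls and 2 rises among 15, by total counts 3 and 8. The enterocyte POU factor genes nub and pdm2 rose 1.82-fold and 2.84-fold, each overlapping a gene on the other strand, while Ptx1 of the posterior and vnd of the middle midgut fell 1.61-fold and 1.58-fold. Rises were 3 without young replicate 2. Myo61F, a myosin of the enterocyte brush border, stood at 1520, 1470, 1490 and 1510 normalised CPM (adjusted p = 0.968, and a rise of 0.50 by total counts).

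**Figure D3:**
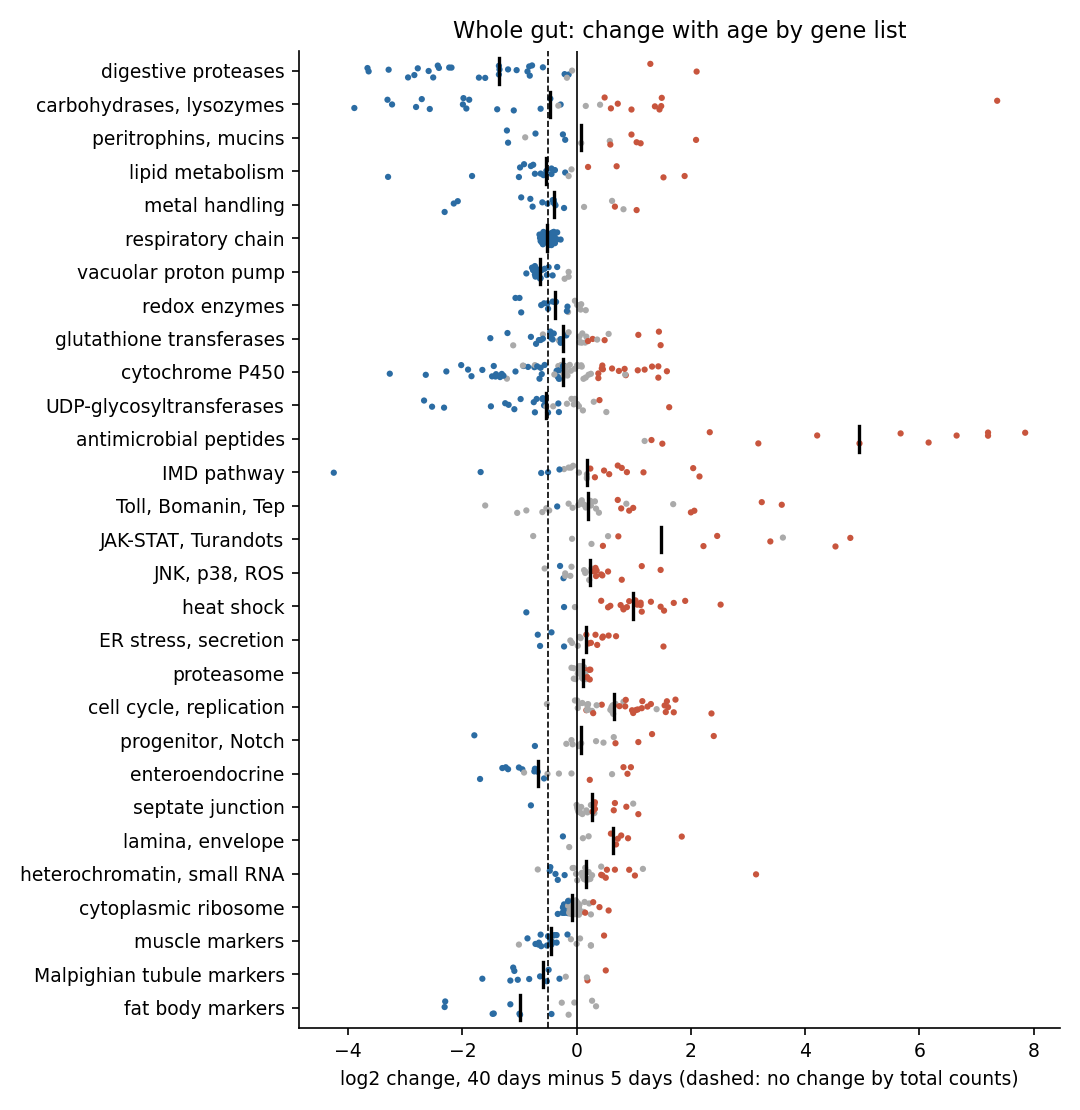
Each point is the log2 change from 5 to 40 days (x axis) of 1 tested gene in 1 of 29 gene lists (y axis), red where it rose, blue where it fell and grey where it did not pass, with a black bar at the list's median. The digestive proteases (median -1.36) and the respiratory chain (-0.51) lie left of the zero line, heat shock genes (0.98) and cell cycle genes (0.65) to its right, and the dashed line is the place of no change by total counts; antimicrobial peptides with 0 reads at 5 days are placed at fitted values that have no fixed size.

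Immune effectors were higher in old guts but remained rare transcripts. The 20 antimicrobial peptide genes summed to 6.11 and 8.42 normalised CPM at 5 days and 63.5 and 66.8 at 40 days. The largest contributor was dro2 (Drsl2, a drosomycin-like peptide; chromosome 3L, 3314349 to 3314682), at 0.497 and 0.186 in young guts and 25.1 and 24.8 in old guts (71.7-fold higher, adjusted p = 2.86e-10). Diptericin DptB went from 0.391 and 0.0745 to 4.53 and 4.31, and dro3 from 0.0355 and 0.298 to 8.46 and 8.54. Attacin AttC, which overlaps CG4744 on the other strand, had 0 and 2 reads at 5 days and 224 and 266 reads at 40 days. Of the 20 genes 13 were tested and 12 rose, but 8 of the 13 had under 10 reads in both young libraries and entered the test only through the old ones, so that count is a description. It was 8 without old replicate 2, and 1 member fell without young replicate 2. The 3 cecropin genes CecA1, CecA2 and CecB, singled out for their low counts, did not reach the level needed for a test. In young replicate 2 dro2 and DptB also lay below that level. They too entered the test only through the old libraries, so their rises are a description.

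Pattern recognition and signalling genes moved less. PGRP-SA, a receptor of the Toll branch for bacterial peptidoglycan, stood at 1.38 and 1.97 in young guts and 19.4 and 21.1 in old guts, 12.1-fold higher (adjusted p = 3.95e-09). It overlaps RpII215 on the other strand by its end. In the IMD list 10 of 23 genes rose and 5 fell, by total counts 18 and 2. The NF-kappaB gene Rel, which overlaps Nmdmc on the same strand, rose 1.49-fold, from 135 and 126 to 193 and 195, the kinase subunit gene key 1.84-fold and the feedback inhibitor gene pirk 2.26-fold, whereas the peptidoglycan amidase gene PGRP-SC2, which dampens the response, fell 1.54-fold (adjusted p = 2.1e-06). By total counts that fall was 0.12 on the log2 scale and did not pass (adjusted p = 0.0698). Toll pathway, Bomanin and thioester protein genes had 8 rises and 1 fall among 30 tested, by total counts 22 and 0. Both counts of rises lie within a few genes of the shares of all loci (20.1%, by total counts 62.4%). The rises include TepI, with 0 and 9 reads at 5 days and 68 and 65 at 40 days, which entered the test only through the old libraries. TepIV and TepII, complement-like proteins, rose 1.98-fold and 1.65-fold. Falls numbered 3 without young replicate 1 and 6 without young replicate 2. The C-type lectin gene lectin-37Da went from 4.76 and 2.65 to 133 and 84.0 (29.2-fold, adjusted p = 0.000898), a call lost without young replicate 1 (adjusted p = 0.196) or 2 (adjusted p = 0.191), and it overlaps Pax on the other strand.

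Heat shock genes rose broadly. Of 22 tested genes 19 rose and 2 fell, with a median of 0.98, and 20 rose and 1 fell by total counts. Hsp23, a small chaperone gene, stood at 41.5 and 50.2 in young guts and 256 and 269 in old guts (5.73-fold, adjusted p = 3.35e-11). Hsp83, the fly Hsp90, rose from 576 and 603 to 2160 and 2230 (3.73-fold, adjusted p = 5.29e-12), Hsp68 2.89-fold and Hsp26 2.78-fold. The constitutive chaperone gene Hsc70-4, the most abundant of the list, rose 1.46-fold. The 6 tested Hsp70 entries all rose with a median of 1.04, but they are near-identical copies whose reads cannot be assigned with certainty. The falls were l(2)efl and Hsf, named after their values were seen, and 1 of these calls was lost without either old replicate. By total counts Hsf rose by 0.27 (adjusted p = 0.00681).

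Other protein quality genes changed by smaller steps. Of 19 genes for folding and secretion in the endoplasmic reticulum 10 rose and 4 fell, by total counts 16 and 2. Gp93, the resident Hsp90, rose 1.48-fold from 450 and 434 to 630 and 674, CaBP1 rose 1.61-fold and Hsc70-3 (BiP) 1.29-fold, while the translocon genes Sec61alpha and Sec61gamma fell 1.56-fold and 1.6-fold. Of 31 tested proteasome subunits 9 rose and none fell (median 0.12), by total counts 31 and 0. That count was 15 and 14 without young replicate 1 and 2, and 1 when either old replicate was left out, and 1 subunit fell without young replicate 2. The most abundant subunit Rpn2 stood at 208, 196, 194 and 197 normalised CPM (adjusted p = 0.524, and a rise of 0.45 by total counts).

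**Figure D4:**
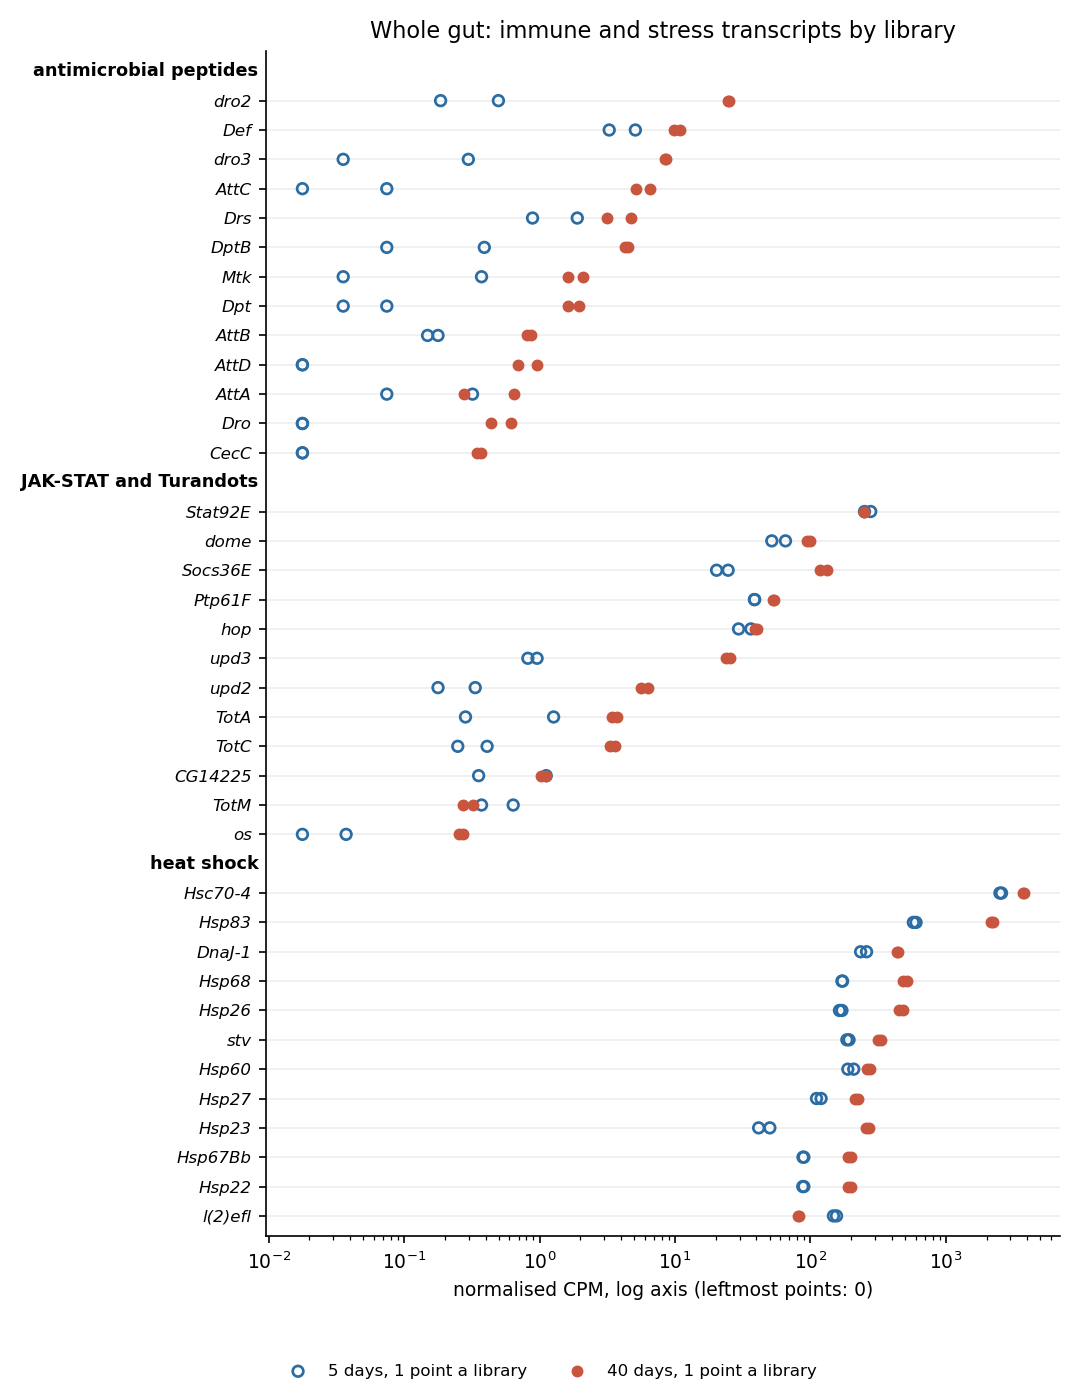
Normalised CPM on a log axis (x) of the antimicrobial peptide, JAK-STAT and heat shock genes with the highest levels (y), with 1 open blue point per 5-day library and 1 filled red point per 40-day library; points at the left edge of the range stand for 0 reads. The red points of upd3 (23.7 and 25.7), dro2 (25.1 and 24.8) and Hsp23 (256 and 269) lie to the right of their blue points, and those of Stat92E overlap them.

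Redox and detoxification genes tended to fall, in part with the scaling. No gene of the 18 tested in the redox list rose and 12 fell, while by total counts 8 rose and 3 fell and 2 rose without young replicate 1. Catalase (Cat) went from 1960 and 1890 to 946 and 983 (2-fold lower, adjusted p = 2.16e-09), and Gclc, which makes the first step of glutathione synthesis, from 613 and 597 to 291 and 286 (2.1-fold lower, adjusted p = 1.17e-09). Both also fell by total counts. Superoxide dismutase gene Sod, 1.43-fold lower, did not pass by total counts (adjusted p = 0.803). Of 34 glutathione transferases 15 fell and 6 rose, by total counts 4 and 18. GstE3 fell 2.31-fold from 504 and 494 to 220 and 212, and GstD1 rose 1.22-fold. Rises were 4 without old replicate 1 and falls 10 without old replicate 2. Of 31 UDP-glycosyltransferases 18 fell and 2 rose (by total counts 9 and 8), with Ugt35b at 349 and 381 in young guts and 62.0 and 64.0 in old guts (5.79-fold lower, adjusted p = 2.71e-12).

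Cytochrome P450 genes, which oxidise hormones, lipids and toxins, had 30 falls and 15 rises among 70 tested, by total counts 16 and 26. Cyp9b2, the most abundant, rose from 1250 and 1240 to 3270 and 3410 (2.69-fold, adjusted p = 6.23e-11). Cyp6a21 fell 4.86-fold and Cyp4d1 4.06-fold. Cyp4g1, the enzyme that completes cuticular hydrocarbons in oenocytes, fell from 373 and 375 to 37.7 and 39.7 (9.64-fold lower, adjusted p = 2.89e-13). The whole of its position lies within CG32816 on the same strand, so the count is uncertain. It fell together with the other 3 genes of the oenocyte marker list, and v(2)k05816 (FASN2, a fatty acid synthase of oenocytes) was 7.6-fold lower and overlaps a small nuclear RNA gene on the same strand. Fad2, a desaturase gene for female pheromones, fell from 38.5 and 37.8 to 3.2 and 2.4 (13.6-fold lower, adjusted p = 1.85e-10). Oenocytes lie under the abdominal cuticle and are no part of the intestine, and the part of carried-over tissue in these falls was not tested.

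Insulin and growth genes split. ImpL2, a secreted insulin-binding antagonist, stood at 28.6 and 33.3 at 5 days and 185 and 204 at 40 days (6.29-fold higher, adjusted p = 2.53e-11). Ilp3, an insulin-like peptide gene, rose 3.81-fold from 7.28 and 7.23 to 24.7 and 30.6, and the receptor gene InR 2.33-fold. The kinase gene Pk61C (Pdk1) fell 1.81-fold and the translation repressor gene Thor 1.28-fold, although Thor rose by 0.14 by total counts. Of 24 genes 8 rose and 11 fell, by total counts 14 and 2, and the rises numbered 5 without old replicate 2. Among the rises Ilp6 had 1 and 4 reads at 5 days and entered the test only through the old libraries. The clock list had 6 falls and no rise among 8 genes, led by tim (1030 and 993 against 572 and 600, 1.72-fold lower), by total counts 1 and 2. Dissection times are not given in the labels.

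Other large single changes lay outside these groups. Act42A, a cytoplasmic actin gene, rose from 92.4 and 91.7 to 554 and 578 (6.15-fold, adjusted p = 6.91e-13), and Idgf1, a chitinase-like growth factor gene, 6.19-fold. Both overlap a gene on the other strand. CG13323 and CG18522 (AOX1) were among the loci that gained most reads, CG13323 from 1200 and 1240 to 3430 and 3710 and AOX1 1.66-fold. CG10911 gained too, 1.41-fold. Ef1alpha48D, the elongation factor, gained reads as a share of the total but stood at 8250, 8240, 7900 and 7920 normalised CPM (adjusted p = 0.321, against a rise of 0.44 by total counts). Mdr50, a transporter gene, fell from 913 and 892 to 132 and 116 (7.28-fold lower, adjusted p = 1.11e-12). Ag5r2 fell 7.83-fold, Eo, which overlaps Flo-2 on the other strand, 11-fold, and the protease gene yip7, from 20600 and 19300 to 7720 and 7840, 2.57-fold. Among genes known only by computed names, CG42704 rose 95.4-fold from 0.32 and 0.559 to 41.6 and 42.3. In young replicate 1 CG42704 lay below the level needed for a test, so it entered only through the old libraries. CG31091 fell 44.7-fold from 633 and 727 to 18.1 and 12.3, and CG6296 fell 17-fold. The CG31091 call was lost without young replicate 1 (adjusted p = 0.0836) or 2 (adjusted p = 0.0775).

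Lam, the lamin-B gene of the series title (chromosome 2L, 5542527 to 5546642), did not fall. Its levels were 23.4 and 19.7 normalised CPM at 5 days and 25.9 and 23.9 at 40 days, and the change of 0.21 (SE 0.11) did not pass (adjusted p = 0.152), although by total counts it was a rise of 0.71 (adjusted p = 9.91e-05) and without young replicate 1 a rise of 0.33 (adjusted p = 0.00354). The old and young libraries did not overlap, by a margin smaller than the gap between the young replicates. Around it, 6 of 10 tested lamina and envelope genes rose and 1 fell, by total counts 10 and 0. The A-type lamin gene LamC rose from 76.7 and 80.6 to 143 and 150 (1.86-fold, adjusted p = 6.89e-08), baf, which tethers chromatin to the envelope, 1.72-fold, and the LEM domain genes Ote and MAN1 3.58-fold and 1.51-fold. LamC and baf overlap genes on the other strand. The fall, Msp-300 (1.18-fold lower), did not pass without old replicate 1 and was a rise of 0.26 by total counts. Rises numbered 4 without old replicate 2, and falls 2 without young replicate 2.

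Heterochromatin and small RNA genes had 8 rises and 5 falls among 32, by total counts 24 and 0. These counts lie within a few genes of the shares of all loci (20.1% rises and 23.4% falls, by total counts 62.4% and 8.57%). AGO2, the Argonaute of RNA interference, rose from 137 and 145 to 291 and 282 (2.03-fold, adjusted p = 5.08e-09), Dcr-1 rose 1.89-fold, while AGO1 fell 1.39-fold (0.02 by total counts). The spn-E count went from 6 and 9 reads to 97 and 107, so it entered the test only through the old libraries. AGO1, AGO2 and spn-E overlap genes on the other strand. Rises numbered 13 without young replicate 2 and 5 without old replicate 2, and falls 3 and 2 without old replicates 1 and 2.

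Markers of neighbouring tissues were checked in the same libraries. Uro, a urate oxidase gene of the Malpighian tubules, stood at 1020 to 1060 CPM of the total in all 4 whole gut libraries and at 0.46 to 7.99 CPM in the 4 libraries of young and old midgut, so the whole gut dissections carried tubule transcripts. The 14 tubule genes summed to 0.271 and 0.276% of reads at 5 days and 0.242 and 0.251% at 40 days, with 10 falls and 2 rises (by total counts 6 and 5). Rises were 3 and 1 without young replicate 2 and old replicate 1. Muscle markers summed to 0.549 and 0.565% of reads and then 0.567 and 0.582%, with 18 falls and 1 rise among 25 tested (by total counts 4 and 7, and 2 rises without young replicate 2). Fat body markers summed to 0.56 and 0.534% and then 0.349 and 0.375%, with 8 falls and no rise among 13, and by total counts 6 and 3. The yolk protein gene Yp1, the most abundant of them, went from 2190 and 2020 to 902 and 979 normalised CPM (2.24-fold lower). Hemocyte markers had 7 falls and no rise among 10 tested of 15, 10 falls without young replicate 2, with the collagen gene vkg 4.06-fold lower. By total counts 6 hemocyte markers fell and 1 rose. The part of these tissues in the gut changes was not tested.

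Other marker lists were sparse. Of 7 tested hindgut genes 2 fell, bowl 1.58-fold and odd 1.75-fold, and none rose. By total counts 1 fell and 4 rose, and bowl did not pass (adjusted p = 0.0803). That was 5 falls without young replicate 2 and 2 rises without young replicate 1. The hindgut regulator gene byn, not picked by the rule for named genes, stood at 14.1, 8.69, 16.9 and 15.7 CPM of the total. In the midgut libraries byn stood at 4.57 and 6.65 at 5 days and 13.6 and 13.1 at 50 days. None of 19 male markers reached the level for a test, and roX2 and Acp70A had no read in any of the 4 libraries. Of 22 ovary and eggshell markers 3 were tested and none passed with all 4 libraries, though 1 rose by total counts or without young replicate 1. Tracheal genes had 1 rise among 7 tested, pio, which did not pass without old replicate 2, and 2 rises without either young replicate. Neuronal and glial genes had 1 rise among 6, n-syb at 1.67 and 1.49 against 3.08 and 3.76, which did not pass without either old replicate, and 2 fell without young replicate 1. Of 50 odorant-binding genes 14 were tested, with 2 rises and 2 falls, Obp56d rising 3.26-fold. The other rise, Obp57a, had no read at 5 days and 12 and 16 reads at 40 days, and it and Obp57c entered the test only through the old libraries. Cuticle genes had 1 fall, Cpr49Ae, among 12 tested of 70. Leaving out 1 library moved these last 2 lists between 0 and 3 rises and between 1 and 4 falls.

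The midgut libraries of the series allow a test of whether the change with age differed between the 2 dissections. In that set the old flies were 50 days old, not 40, and whether the sets were handled together is not stated, so dissection, age and batch cannot be told apart. In a fit of all 8 libraries, 2497 of 10234 tested loci (24.4%) changed more upward in whole gut than in midgut and 1930 (18.9%) more downward. The digestive proteases, lower in old whole gut, had 24 members with a more downward change there and 4 with a more upward one, while in midgut 11 rose and 12 fell, against 21.1% rises and 25.9% falls among all loci tested there. Jon25Biii changed by 0.02 in midgut, and the difference was -2.42 (adjusted p = 1.73e-05). CG12374 rose by 1.4 in midgut against its fall in whole gut (difference -3.51, adjusted p = 2.78e-08). Of 43 respiratory chain genes 40 changed more downward in whole gut, with a median difference of -0.45. That step is close to the shift of 0.50 between the scalings in whole gut, so this count may depend on the scaling.

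Heat shock genes differed the other way. In the heat shock list 17 genes changed more upward in whole gut and none more downward, and in midgut 15 fell and 3 rose. Hsp23 fell by 1.11 on the log2 scale in midgut (difference 3.66, adjusted p = 6.16e-10). PGRP-SA fell by 4.16 in midgut (difference 7.78, adjusted p = 2.24e-10). Of 18 antimicrobial peptide genes in this fit 17 fell and 0 rose in midgut, and 16 changed more upward in whole gut. Most had few reads in young whole gut, so these counts are a description. Of 34 Toll, Bomanin and thioester protein genes 29 fell and 1 rose in midgut. In that list 27 changed more upward in whole gut and 1 more downward. Markers of several neighbouring tissues fell in midgut too. Of 13 fat body markers 10 fell and 3 rose there (median -2.43), and of 27 muscle markers 26 fell and 1 rose. Of 12 hemocyte markers in this fit 10 fell and none rose, whereas of 7 hindgut markers 4 rose and 1 fell. The part of carried-over tissue in the midgut changes was not tested. Cytokine upd3 rose in both, by 2.44 in midgut, and rose further in whole gut by 2.37 (adjusted p = 0.000875). Lam gave a difference of 0.21, which did not pass (adjusted p = 0.218), but did without young whole gut replicate 1 (0.32, adjusted p = 0.0392).

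**Figure D5:**
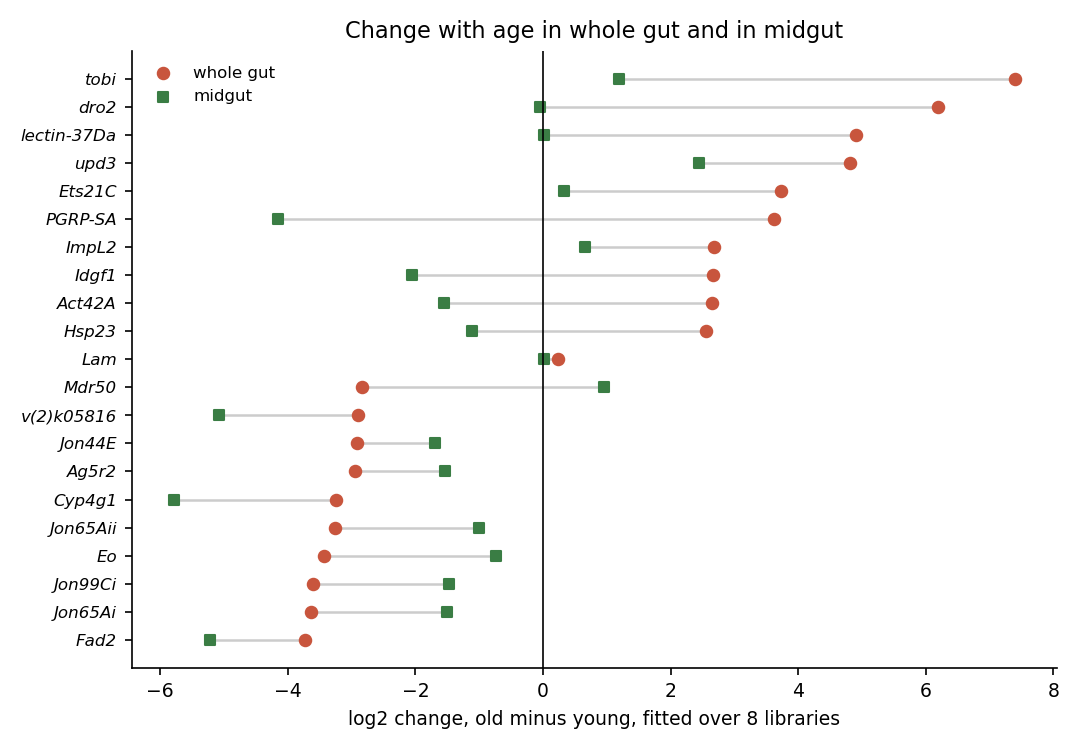
Log2 change with age (x axis) in whole gut (red circles, 40 against 5 days) and midgut (green squares, 50 against 5 days), fitted over 8 libraries, for Lam and the 20 named genes with the largest rises and falls in whole gut (y axis). PGRP-SA, Idgf1, Act42A, Hsp23 and Mdr50 lie on opposite sides of zero in the 2 dissections, and Cyp4g1 and Fad2 fell further in midgut.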

How the data were processed

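Poly-A libraries were prepared with the PicoPure and TruSeq kits, per the labels' protocols. The submitters' processing notes name CASAVA 1.8, TopHat2 and edgeR. The authors deposited a raw read count per annotated gene. The counting tool, its strand setting, its rule for multiply matching reads and the build are not given in the sources used here. The chromosomes carry release 5 style names, and deposited starts were raised by 1 to count from 1. A release 6 annotation served for current symbols alone (13837 of 14095 loci matched). Of the tested loci 39.7% overlap another, and their values are uncertain.

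Rows of equal position and counts were merged (15080 entries to 14095 loci). Tests on the counts used edgeR 4.0.16 under R 4.3.3 (filterByExpr, TMM factors of 0.835 to 1.19, robust quasi-likelihood F test, Benjamini-Hochberg adjustment over all tested loci). The fit of 4 libraries had 2 residual degrees of freedom and a biological coefficient of variation of 7.32%. Differences between dissections came from 1 fit of 8 libraries. Tables and figures used Python 3.11.15, numpy 2.4.6, pandas 2.3.3 and matplotlib 3.10.9, and alternatives used DESeq2 1.42.0 and limma 3.58.1. The test was checked on simulated data in which few loci changed, evenly up and down, so that check does not bear on the choice of scaling.

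The labels do not say that replicates came from separate flies, and biological replicates are named only in the series design, so p-values measure the spread between these samples. Replicates differed by more than sampling noise (chi-square per locus 10.8 young, 7.63 old). Genes were named by rule: Lam, the 10 steepest rises and falls among genes with a gene name, a mean level of 3 or more (log2 CPM) and old and young libraries that did not overlap in level, the 3 steepest each way among computed names, the 6 largest gains and losses of reads, and from each of 44 lists the 4 passing members of smallest p and the most abundant. The members and lists were chosen with earlier results of these data known.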

Additional observations from a re-analysis of the deposited data

Results flagged for a closer look

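The 20 named genes of largest change were each flagged because their change with age differed between whole gut and midgut, by the interaction test of the 8-library fit with edgeR (adjusted p below 0.05). The values are the log2 change in whole gut minus that in midgut. Old whole guts were from 40 days and old midguts from 50 days, so dissection, age and batch cannot be told apart. These 20 genes were picked by their steep change in the same whole gut libraries that enter this test. That all 20 passed is therefore a description and does not measure how often the dissections differ. Among all 10234 loci of that fit, 24.4% changed more upward in whole gut and 18.9% more downward.

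Among genes that rose in whole gut, the difference was 7.78 for PGRP-SA, 6.23 for dro2, 6.21 for tobi, 4.87 for lectin-37Da, 4.71 for Idgf1, 4.21 for Act42A, 3.66 for Hsp23, 3.4 for Ets21C, 2.37 for upd3 and 2.02 for ImpL2. PGRP-SA, Idgf1, Act42A and Hsp23 fell in midgut, by 4.16, 2.05, 1.56 and 1.11. The difference for upd3 did not pass in a fit of all 17 samples (adjusted p = 0.0605).

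Among genes that fell in whole gut, it was -3.78 for Mdr50, which rose by 0.95 in midgut, -2.7 for Eo, -2.25 for Jon65Aii, -2.15 for Jon99Ci, -2.12 for Jon65Ai, -1.41 for Ag5r2 and -1.23 for Jon44E. The difference was 2.54 for Cyp4g1, 2.18 for v(2)k05816 and 1.48 for Fad2, which fell in both dissections and further in midgut.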

How the results depend on the processing

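Scaling by total counts alone gave 6933 calls in whole gut (6095 higher, 838 lower) and, for the difference from midgut, 4875 higher and 734 lower. By it, 20 genes named by rule changed sign: Ef1alpha48D (0.44), Msp-300 (0.26), Stat92E (0.42), sty (0.10), Fer1HCH (0.10), RpL15 (0.16), RpL37a (0.25), RpLP1 (0.25), RpL3 (0.29), mRpS5 (0.17), mRpS9 (0.27), mRpL28 (0.28), Rpn2 (0.45), Thor (0.14), AGO1 (0.02), cry (0.01), vri (0.06), Obp99c (0.33), Uro (0.01) and crq (0.16). Hsf, Amy-p and Amy-d, named outside the rule, changed sign too. All 1969 rises of the TMM scale were rises by total counts, but of the 2288 falls 838 stayed falls and 444 became rises. A 2-fold minimum left 1092 calls (528 higher, 564 lower), and 1905 for the difference (1309 higher, 596 lower). Leaving out 1 library gave 2936 to 5619 calls, 1192 to 2821 higher and 1744 to 2798 lower, and for the difference 3469 to 4966, 1936 to 2863 and 1524 to 2103; a lone sample is then assumed to vary like the other group. DESeq2, limma-voom, DESeq2 size factors, upper quartile factors, no filter, at least 1 CPM in 2 libraries, unmerged entries, an adjusted p below 0.01, the 50 highest loci left out, and fits with the midgut or all 17 samples kept these totals within 1.5 times. Deviations of same-numbered replicates were close to uncorrelated between the age groups (-0.0424). That cannot exclude shared handling of same-numbered samples. A replicate block gave 1953 rises and 2222 falls. With 2 libraries a group, members at a few reads, such as most antimicrobial peptides at 5 days, are limited by depth.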

Other observations

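A group picked out only after its values were seen, because 2 of the 3 steepest rises among computed names belong to it, was that of antiviral RNA sensing and RNA interference, and it was given no test of its own. In flies, cGlr1 and cGlr2 are receptors that make a cyclic dinucleotide on sensing foreign RNA, Sting is the receptor of that signal, and Srg1, Srg2, Srg3 and Nazo are genes known to be regulated through Sting. CG12970 (cGlr1) stood at 0.142 and 0.335 normalised CPM in young whole guts and at 15.2 and 14.7 in old ones (62.3-fold higher, edgeR adjusted p = 1.8e-09). It had 4 and 9 reads at 5 days and entered the test only through the old libraries, so its rise is a description. CG42825 (Srg2) was an abundant transcript, at 137 and 149 in young guts and 1510 and 1590 in old guts, 10.8-fold higher. CG33926 (Srg3) went from 57.2 and 56.4 to 374 and 402, and CG11671 (Nazo) from 31.5 and 28.7 to 192 and 197. Their groups did not overlap.

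CG6967 (Mov10, an RNA helicase gene that overlaps CG30460) went from 0.71 and 1.6 to 66.7 and 71.2, 59.9-fold higher (adjusted p = 3.15e-11). Sting itself, annotated as CG1667 and overlapping Orc6, rose 1.35-fold and Dcr-2, which cuts long double-stranded RNA, 1.37-fold. The secreted factor gene Vago rose from 0.284 and 1.04 to 2.16 and 2.28. It had 8 reads in young replicate 1 and entered the test only through the old libraries. CG30424 (cGlr2) at 30.1, 26.1, 28.8 and 31.3, r2d2 (adjusted p = 0.692) and CG13641 (Srg1) at 0.959, 0.782, 0.437 and 0.569 did not pass on the TMM scale, though the first pair rose by 0.59 and 0.55 by total counts.

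In midgut, at 50 against 5 days, the group did not move together. Srg2, Srg3 and Nazo fell by 0.82, 1.08 and 0.86 on the log2 scale. Their differences from whole gut were 4.28, 3.88 and 3.58 (edgeR adjusted p = 3.77e-08, 4.72e-08 and 3.43e-10). AGO2, Vago and Srg1 also fell in midgut. Mov10 rose there by 1.11 and Dcr-2 by 0.6, and the difference for Dcr-2 did not pass (-0.12, adjusted p = 0.371). Sting (-0.07), cGlr1 (0.35), cGlr2 (0.11) and r2d2 (0.15) did not pass in midgut. The content of viral reads in these libraries was not analysed here.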
